A study of Homo sapiens with 24 samples.

Results

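Integrin and laminin genes were followed through 24 microarrays of U251 cells, a human glioblastoma (GBM) line, exposed to G-1, a synthetic agonist of the G protein-coupled estrogen receptor GPER. The members were chosen by gene symbol alone, as integrin alpha (ITGA), integrin beta (ITGB) and laminin chain (LAMA, LAMB, LAMC) genes that the RefSeq transcripts of the probes named. The genes reported here are 37, 18 alpha, 8 beta and 11 laminin, measured by 51 of the 58201 probes, which together named 24847 genes.

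The 6 groups held 4 arrays each, and the labels describe them as independent biological replicates. Cells were exposed to the vehicle DMSO (0.1% by the labels, whereas the study's methods give a lower concentration), to G-1 at the dose called IC50, or to G-1 at 1 µM, each for 24 h or 72 h. All groups shared the line, a single tumor culture grown without other cell types, and 24 h without steroid hormones in charcoal-stripped serum before exposure. The labels' duration entry disagrees with the titles in the 24 h group of the IC50 dose and the 72 h group of the 1 µM dose, and the titles were used.

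Integrins are cell surface receptors, each built from an alpha and a beta subunit, that bind the extracellular matrix outside the cell and link to the actin cytoskeleton inside it. Laminins are large secreted proteins of the basement membrane, each built from an alpha, a beta and a gamma chain, and several integrins bind them. In GBM, both families are known for their part in the attachment of tumor cells to blood vessel walls and brain matrix and in their migration.

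Values are log2 signals after subtraction of the array's own 75th percentile, so a difference of 1 is a 2-fold difference, and levels of different probes cannot be compared. A probe entered the test if any group had it well above background on each of its 4 arrays. This held for 26 members through 32 probes (10 alpha, 7 beta and 9 laminin genes), and 22 of the 26 had a probe above background on all 24 arrays. A gene with several tested probes is given by its brightest, and a gene passed the test at an adjusted p under 0.05 in limma, adjusted over 22973 probes. The other 11 members were not tested. ITGA2, ITGA2B, ITGA8, ITGAD, ITGAL, ITGAM, ITGAX, ITGB6, LAMB4 and LAMC3 were above background on 0 arrays, and ITGA1, a collagen receptor subunit, on 9 of 24. ITGAL, ITGAM, ITGAX and ITGAD are subunits of leukocyte integrins, and ITGA2B is the platelet subunit.

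Of 10 astroglial and glioma markers, 9 were above background on all 24 arrays, among them GFAP, VIM and NES, and AQP4 on 0. The defining markers of leukocytes (PTPRC), endothelium (PECAM1) and epithelium (EPCAM, CDH1) were on 0 arrays. Other markers of these and of neural cells were above background on all arrays, such as CD14, KRT8, RBFOX3 and MBP. Some were above background on fewer of the 1 µM arrays, which lay on a slide of their own. SPI1 (leukocyte), CDH5 (endothelium), KRT19 (epithelium) and MOG (oligodendrocyte) were above background on 4 of 4 DMSO arrays at 72 h and on 0, 0, 1 and 1 of 4 at 72 h of 1 µM. At 24 h they were on 4, 3, 4 and 4 of 4 DMSO arrays and on 0, 2, 4 and 0 of 4 arrays of 1 µM. Treatment and slide cannot be told apart here, and the part of such signals in the results was not tested.

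Arrays of a group correlated at 0.990 to 0.996 over the tested probes. The arrays lay on 3 slides of 8. DMSO and G-1 IC50 shared slides 1 and 2, and the 8 arrays exposed to 1 µM filled slide 3, which was scanned in another session. On these 8 arrays 38.0% to 40.7% of spots were well above background, with a median local background of 48 to 58, against 41.1% to 44.5% and 44 to 48 on the other 16, and the part of this in the 1 µM results was not tested. At 1 duration, the effect of 1 µM and the effect of the slide cannot be told apart, whereas a constant offset between slides cancels where the change at 72 h is compared with that at 24 h.

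After 72 h of G-1 1 µM, 16 of 26 members passed the test, 4 higher and 12 lower. Over all 14238 tested genes 65.9% passed (32.7% higher and 33.2% lower), so the members' share of 61.5% was near the background. Fitted changes exceeded 2-fold in 4 members, all lower, of which ITGA11, ITGB4 and ITGA9 were measured on both sides and LAMA1 was not above background at 1 µM, with a bound of at least 1.94-fold, against 12.6% of all genes (4.5% higher and 8.09% lower). By family, 4 of 10 alpha subunits were higher and 4 lower, 0 of 7 beta subunits were higher and 4 lower, and 0 of 9 laminin chains were higher and 4 lower. The median change of the members was -0.30, and of all tested genes -0.01. As RNA of whole cultures was measured, fewer cells expressing a gene and less of its RNA per cell cannot be told apart.

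With 1 µM for 24 h, 5 of 26 members passed, against 29.8% of all genes, and 0 of them changed more than 2-fold (1.68% of all genes). The 3 higher and 2 lower members stood beside 18% and 11.8% of all genes. Fewer members passed with G-1 IC50. After 24 h, 0 of 26 passed in limma, with 0.246% in all genes. At an unadjusted p under 0.05 there were 4, a threshold at which the share of all genes was not counted. After 72 h 1 member passed, ITGB3, with 0.906% in all genes (0.471% lower). At an unadjusted p under 0.05 there were 7 after 72 h, again without a share of all genes. The 4 comparisons share DMSO arrays in pairs, those of each duration.

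**Figure D1:**
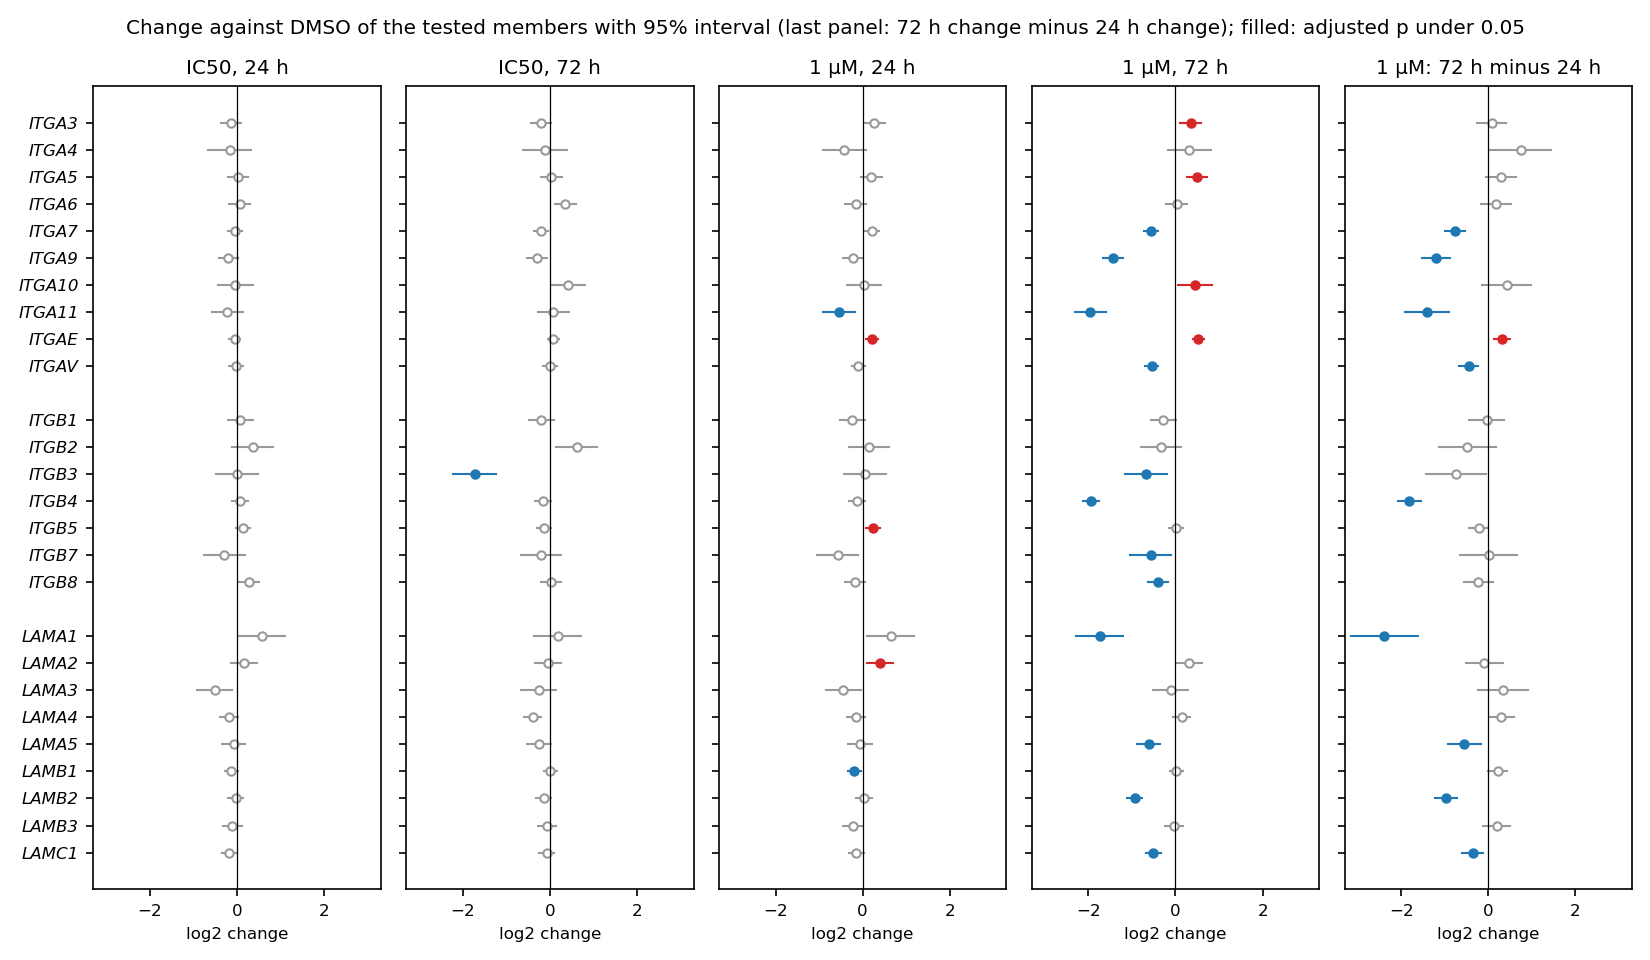
Log2 change of each tested member against DMSO (points) with its 95% interval (lines), for each dose and duration, and in the last panel the 72 h change minus the 24 h change of G-1 1 µM. Filled points passed the test (red higher, blue lower). The 72 h panel of G-1 1 µM holds 16 filled points, and that of G-1 IC50 holds 1, ITGB3.

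The promoters below are those of the 2 members that fell most and of the 2 that rose most after 72 h of G-1 1 µM among members with a RefSeq promoter entry, and show members that moved in opposite directions side by side. Entries were found for 19 of the 26 tested genes. Members without one include ITGB4, LAMA1, ITGA9 and ITGB3. Each line is the 250 bases before the gene's start, 5′ to 3′ on the strand of the gene (the minus strand in all 4), from RefSeq on GRCh38.p14, with the GC box (GGGCGG on either strand) in capitals. ITGA11 lies at chr15:68432164-68432413, LAMB2 at chr3:49133051-49133300, ITGAE at chr17:3801189-3801438 and ITGA5 at chr12:54419267-54419516.
ITGA11: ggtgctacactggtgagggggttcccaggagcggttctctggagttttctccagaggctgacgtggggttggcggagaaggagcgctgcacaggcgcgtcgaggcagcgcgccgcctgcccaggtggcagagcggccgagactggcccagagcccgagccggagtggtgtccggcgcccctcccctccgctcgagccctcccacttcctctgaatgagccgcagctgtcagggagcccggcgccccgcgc
LAMB2: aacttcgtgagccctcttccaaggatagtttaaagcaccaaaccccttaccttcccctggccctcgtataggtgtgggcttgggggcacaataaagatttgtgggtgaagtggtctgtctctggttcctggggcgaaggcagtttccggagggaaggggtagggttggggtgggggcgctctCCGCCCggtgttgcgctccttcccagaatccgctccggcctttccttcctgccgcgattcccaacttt
ITGAE: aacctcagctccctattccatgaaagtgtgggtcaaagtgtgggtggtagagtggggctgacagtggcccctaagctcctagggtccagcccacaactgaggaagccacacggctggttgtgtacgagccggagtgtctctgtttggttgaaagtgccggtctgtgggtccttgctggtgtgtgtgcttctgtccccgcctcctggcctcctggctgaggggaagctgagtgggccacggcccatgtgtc
ITGA5: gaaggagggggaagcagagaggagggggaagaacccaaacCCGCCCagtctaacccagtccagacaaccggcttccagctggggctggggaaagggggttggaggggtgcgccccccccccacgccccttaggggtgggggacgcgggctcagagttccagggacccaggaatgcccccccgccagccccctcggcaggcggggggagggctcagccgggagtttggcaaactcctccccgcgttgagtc
A GC box was found once in LAMB2, which fell, and once in ITGA5, which rose, and in this window of neither ITGA11 nor ITGAE. Of 35116 promoter windows of the same length, 42.6% hold it, and of 26 windows of the tested members 14 do. The CCAAT box (letters CCAAT on either strand, without overlap with the GC box) was in 0 of the 4 printed windows, in 3 of the 26 windows of the members and in 32% of all. G and C made up 71.2% of the ITGA11 window, 58.4% of LAMB2, 60% of ITGAE and 70% of ITGA5.

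ITGB3 encodes the beta subunit that pairs with the alpha subunit ITGAV into a receptor for vitronectin and other ligands with an RGD motif, best known from growing blood vessels, platelets and invasive tumors. It was the 1 member that passed the test under G-1 IC50. After 72 h its log2 levels were 1.73, 1.41, 1.32 and 1.22 on the DMSO arrays and 0.06, -0.29, -0.37 and -0.64 on the G-1 IC50 arrays. The groups did not overlap, and the G-1 IC50 mean was 3.32-fold lower (log2 change -1.73, SE 0.23, limma adjusted p = 0.000475). Within slide 1 (1 against 2 arrays) the difference was -1.61, and within slide 2 (3 against 2) it was -1.84. With each of the 8 arrays left out in turn the change lay between -1.86 and -1.62 and passed every time. By the methods' t-test on the 8 arrays it passed unadjusted and did not after adjustment (adjusted p = 0.0546).

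At 1 µM the 72 h levels of ITGB3 were 0.66, 1.25, 0.45 and 0.60, between those of the other treatments. They overlapped DMSO at the second replicate only, with a change of -0.68 (SE 0.23, adjusted p = 0.0153). This call was lost without DMSO replicate 1 (adjusted p = 0.0545) or G-1 1 µM replicate 3 (0.0520). ITGB3 was 2.08-fold higher at 1 µM than at IC50 after 72 h (adjusted p = 0.000557), and the 2 groups did not overlap. After 24 h, changes were -0.00 at IC50 and 0.06 at 1 µM, and neither passed. The change at IC50 differed between durations by -1.73 (SE 0.33), which did not pass (adjusted p = 0.102).

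The partners and relatives of ITGB3 that bind RGD ligands moved by smaller steps. ITGAV, the alpha subunit that pairs with ITGB1, ITGB3, ITGB5 and ITGB8, had levels of 5.53, 5.62, 5.42 and 5.65 in DMSO at 72 h and of 5.10, 4.89, 5.03 and 5.02 in G-1 1 µM. All 4 treated arrays were below all 4 controls, with a change of -0.55 (SE 0.07, adjusted p = 2.39e-06), and at IC50 the change was -0.00. ITGA5, which pairs with ITGB1 into the main fibronectin receptor, was higher at 1 µM, with 1.71, 2.36, 2.31 and 2.03 against 1.71, 1.62, 1.53 and 1.57 (change 0.50, SE 0.11, adjusted p = 0.000774). Replicate 1 of G-1 1 µM lay just above the highest control. ITGB8, which with ITGAV binds latent TGF-beta and is an astroglial integrin, fell by 0.40 after 72 h of 1 µM (adjusted p = 0.00362), with 2.19, 2.03, 2.23 and 2.37 against 2.80, 2.43, 2.78 and 2.44. ITGB5 did not pass at 72 h (0.01, with levels of 4.00 to 4.31 against 3.97 to 4.22). ITGB1, the shared partner of most alpha subunits here, did not pass either (-0.27, 95% interval -0.56 to 0.01).

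ITGB4 pairs with ITGA6 alone, binds laminins and anchors cells through hemidesmosomes. It had the smallest adjusted p of all members after 72 h of 1 µM. Its levels were 7.17, 6.89, 6.98 and 7.02 in DMSO and 5.14, 5.15, 4.93 and 5.05 in G-1 1 µM, and 6.96, 6.77, 6.72 and 6.95 in G-1 IC50. The 1 µM arrays stood apart from all others, 3.85-fold below DMSO (log2 change -1.94, 95% interval -2.13 to -1.76, adjusted p = 1.18e-12). At 24 h its levels ran from 6.85 to 7.20 at 1 µM and from 6.96 to 7.21 in DMSO, with overlapping arrays and a change of -0.14 that did not pass.

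Its partner ITGA6 had 2 tested probes that disagreed. The brightest was at 1.87, 1.46, 1.51 and 1.66 after 72 h of 1 µM against 1.73, 1.70, 1.55 and 1.42 (0.03, not passed), whereas the other was at 0.87, 0.96, 1.04 and 0.90 against 0.51, 0.46, 0.39 and 0.48 (0.49, adjusted p = 0.00463). The laminin receptor subunits that pair with ITGB1 moved in opposite directions. ITGA7, known from muscle and glioma, fell by 0.56 (adjusted p = 3.32e-06), with 6.30, 6.34, 6.20 and 6.38 against 6.84, 6.91, 6.78 and 6.94. ITGA3 was higher by 0.35 (adjusted p = 0.00988), with 6.79, 7.13, 6.85 and 6.88 against 6.62, 6.50, 6.61 and 6.53. In neither gene did the arrays of the 2 groups overlap. At IC50 the 72 h changes of ITGA3, ITGA6 and ITGA7 were -0.20, 0.35 and -0.20, and none passed.

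ITGA11 pairs with ITGB1 into a receptor for fibrillar collagen and is the alpha subunit with the first promoter printed above. Its fall and that of ITGB4 were about equal. After 72 h its levels were -0.35, -0.15, -0.73 and -0.04 in DMSO, -0.31, -0.10, -0.40 and -0.14 in G-1 IC50, and -2.21, -2.35, -2.32 and -2.21 in G-1 1 µM. DMSO and IC50 covered the same range, and the 1 µM arrays lay far below both, 3.87-fold below DMSO (change -1.95, SE 0.17, adjusted p = 6.76e-09). ITGA10, the other collagen receptor subunit tested, was dim, above background on 16 of 24 arrays and on 1 of 4 in DMSO at 72 h. Its change of 0.45 at 1 µM passed (adjusted p = 0.0438), and was lost without DMSO replicate 3 or 4 or G-1 1 µM replicate 1 or 2 (0.27 to 0.53 over all 8, adjusted p up to 0.200) and with the slide as a random block (adjusted p = 0.0770).

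ITGA9 and ITGA4 pair with ITGB1 into receptors for VCAM1 and for matrix proteins such as tenascin and osteopontin. ITGA9 was at 1.55, 1.68, 1.43 and 1.55 in DMSO at 72 h, at 1.30, 1.37, 1.23 and 1.11 in G-1 IC50, and at 0.13, -0.13, 0.04 and 0.42 in G-1 1 µM. The 3 treatments did not overlap. The 1 µM change was -1.44 (2.70-fold lower, adjusted p = 7.04e-10) and passed, and the IC50 change was -0.30 (adjusted p = 0.352) and did not. ITGA4 did not pass in any comparison with DMSO through any of its 3 tested probes, with 72 h changes of 0.32, 0.29 and 0.09 at 1 µM.

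ITGAE, ITGB2 and ITGB7 are best known from leukocytes, and ITGAE pairs with ITGB7 into a receptor for E-cadherin. ITGAE was above background on all 24 arrays and was the 1 alpha subunit that passed as higher at both durations of 1 µM. At 72 h its levels were 4.10, 3.89, 4.16 and 3.99 against 3.51, 3.64, 3.47 and 3.45, without overlap (change 0.52, SE 0.06, adjusted p = 3.45e-07). ITGB7 and ITGB2 were dim. ITGB7 had a 72 h change of -0.57 (adjusted p = 0.0322), with 2 of 4 arrays of 1 µM above background. That call was lost without DMSO replicate 2 or 3 or G-1 1 µM replicate 4 (adjusted p up to 0.139) and with the slide as a random block (0.0660). ITGB2 did not pass against DMSO, at -0.33 for 1 µM and 0.61 for IC50 after 72 h, and the 2 doses differed by -0.94 (adjusted p = 0.00109).

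**Figure D2:**
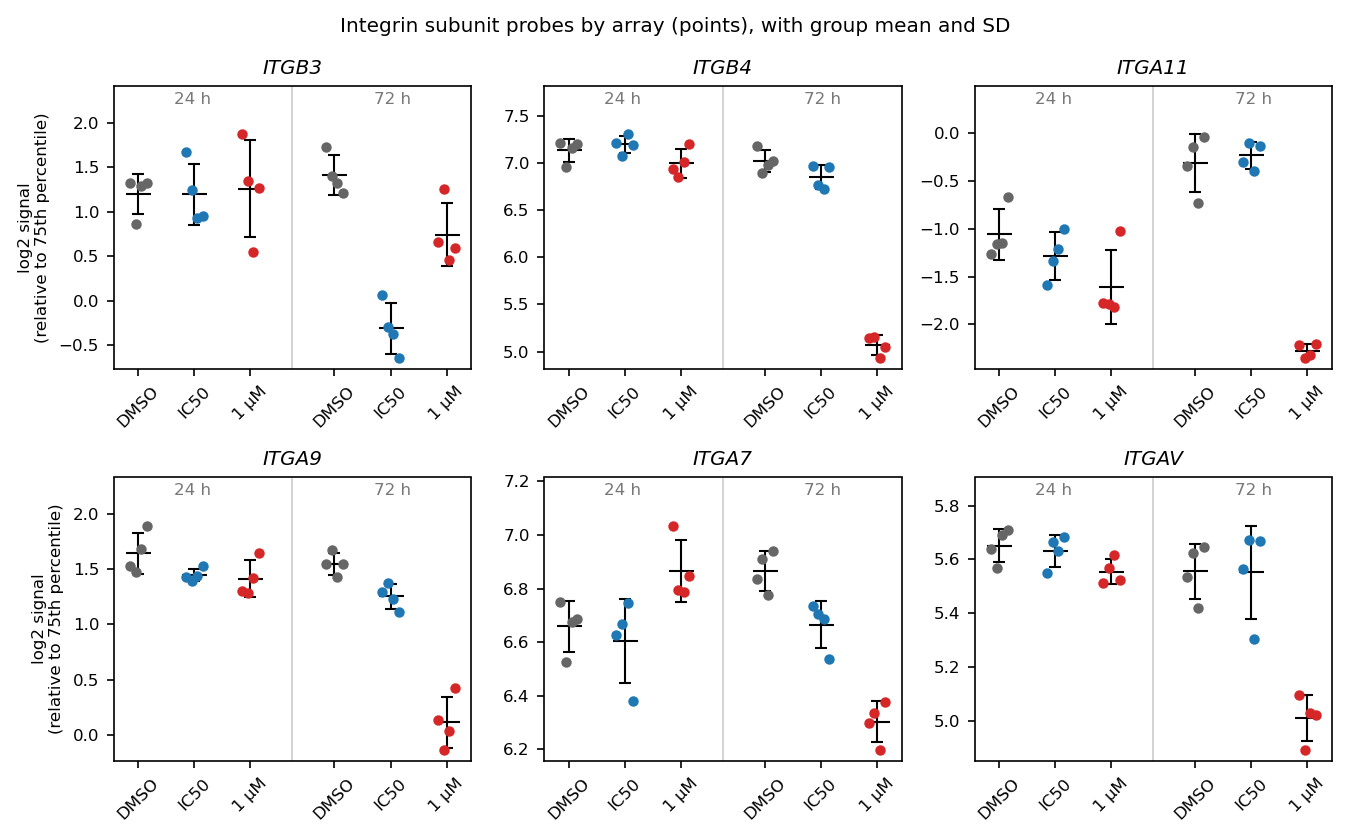
Log2 signal of 6 integrin subunits on each of the 24 arrays (points), by treatment and duration, with the mean and SD of each group of 4 (bars). Each panel has its own scale. ITGB3 is lowest in G-1 IC50 at 72 h, and the other 5 are lowest in G-1 1 µM at 72 h.

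Among laminin chains LAMA1, LAMB2, LAMA5 and LAMC1 fell after 72 h of 1 µM, and LAMA2, LAMA3, LAMA4, LAMB1 and LAMB3 did not pass.

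LAMA3 and LAMB3 are found together in the laminin under epithelia, and neither passed. LAMA3 was at -1.60, -1.82, -1.94 and -1.79 in G-1 1 µM against -1.57, -1.31, -1.87 and -1.95 (change -0.11, 95% interval -0.52 to 0.29). LAMB3 was at 2.57, 2.59, 2.49 and 2.44 against 2.49, 2.60, 2.46 and 2.67 (change -0.03, interval -0.25 to 0.18). In both genes the groups overlapped.

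LAMC1, the gamma chain of most laminins, was at 4.10, 4.07, 3.96 and 3.82 in DMSO at 72 h and at 3.57, 3.33, 3.44 and 3.60 in G-1 1 µM, a fall of 0.50 (SE 0.08, adjusted p = 2.16e-05) with no overlap.

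LAMB2, the beta chain of laminins at vessel walls and synapses, is the laminin whose promoter is printed above. Its brightest probe was at 6.49, 6.56, 6.44 and 6.60 in DMSO and at 5.42, 5.65, 5.63 and 5.64 in G-1 1 µM (1.92-fold lower, log2 change -0.94, adjusted p = 1.19e-08), and the other tested probe changed by -1.31 (adjusted p = 1.22e-08). In both probes the groups were apart. LAMB1, the beta chain more common in early development, was at 4.94, 4.74, 4.79 and 4.86 against 4.74, 4.91, 4.68 and 4.92 and did not pass (0.02, interval -0.13 to 0.17).

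Of the alpha chains, LAMA1, a chain of the early embryo, was dim. Its levels were -2.47, -2.53, -2.52 and -2.67 in DMSO at 72 h, all above background, and -3.78, -4.23, -4.90 and -4.24 in G-1 1 µM, where 0 of 4 arrays were above background. The fitted change against DMSO was -1.74 (adjusted p = 7.24e-06), from 1 µM values that were not above background. Set against the lowest signal above background, or the probe's own signal where that was higher, LAMA1 was at least 1.94-fold lower than in DMSO. Against G-1 IC50 it was at least 2.19-fold lower. These bounds were not tested. LAMA5, an alpha chain found in adult vessels, fell by 0.62 (adjusted p = 0.000322), with 0.33, 0.93, 0.71 and 0.67 against 1.44, 1.37, 1.21 and 1.09. LAMA4, a vessel and mesenchymal chain that GBM is known to deposit, had 3 tested probes. At 1 µM they changed by 0.14, 0.33 and 0.22, of which the middle value passed (adjusted p = 0.00214) and the first, from the brightest probe, did not. LAMA2, the muscle and glial chain, had a 72 h change of 0.31 that did not pass (adjusted p = 0.0613), although its 2 groups did not overlap, at -1.03, -1.11, -1.24 and -1.22 against -1.53, -1.52, -1.42 and -1.38.

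Under G-1 IC50 0 of 9 laminin chains passed at either duration in limma, with 0.246% in all genes at 24 h and 0.906% at 72 h. At an unadjusted p under 0.05 there were 3 at 24 h and 1 at 72 h, without a count over all genes at that threshold. The value nearest the adjusted threshold was LAMA4 at 72 h, where the brightest probe was at 5.76, 5.67, 5.69 and 5.64 against 6.03, 5.93, 6.11 and 6.28 (-0.40, adjusted p = 0.0660).

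**Figure D3:**
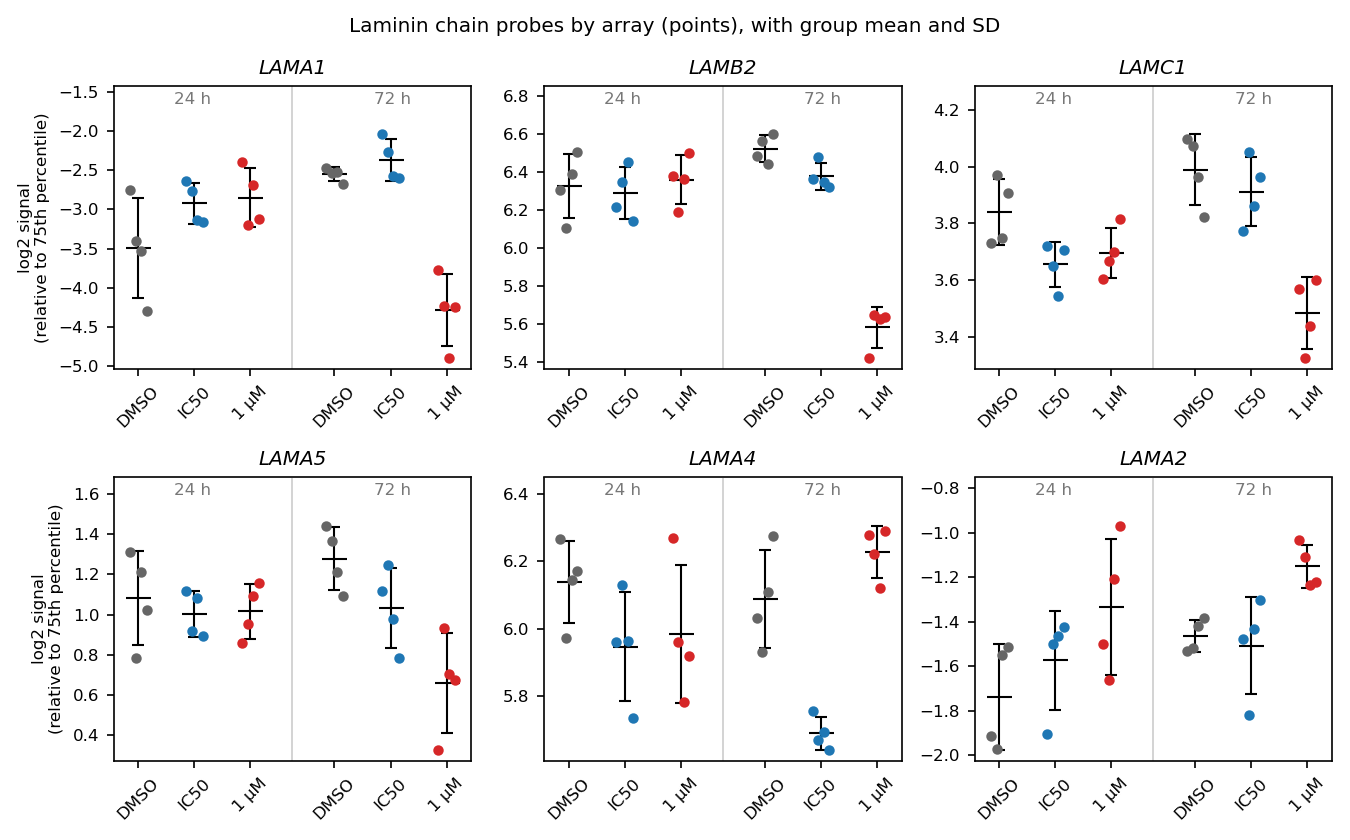
Log2 signal of 6 laminin chains on each of the 24 arrays (points), by treatment and duration, with the mean and SD of each group of 4 (bars). Each panel has its own scale. After 72 h of G-1 1 µM, LAMA1, LAMB2, LAMC1 and LAMA5 are lower than in DMSO, and the LAMA1 points of G-1 1 µM at 72 h are not above background. LAMA4 is lowest in G-1 IC50 at 72 h.

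At 24 h of 1 µM the members that passed were ITGAE, ITGB5 and LAMA2 (higher) and ITGA11 and LAMB1 (lower), with changes of 0.21, 0.23, 0.40, -0.54 and -0.20 and adjusted p between 0.0135 and 0.0467. ITGAE, at 3.87, 4.02, 3.98 and 3.94 against 3.82, 3.71, 3.75 and 3.68, passed with each of the 8 arrays left out in turn. The others did not. ITGB5 was lost without DMSO replicate 2 or 3 or 1 µM replicate 1 or 2, ITGA11 without DMSO replicate 4 or 1 µM replicate 1, 2 or 3, LAMA2 without DMSO replicate 1 or 2 or 1 µM replicate 3 or 4, and LAMB1 without any 1 of the DMSO replicates or 1 µM replicate 1 or 3. In these fits the changes lay between 0.20 and 0.28, between -0.74 and -0.41, between 0.28 and 0.51 and between -0.23 and -0.15, with adjusted p up to 0.153, and the count of members that passed lay between 2 and 6. With the slide as a random block 2 passed, ITGAE and ITGB5. The split of 3 higher and 2 lower became 2 and 3 with quantile normalization and 2 and 2 with normexp background correction, both of which lost ITGAE, and 5 and 1 in the deposited log2 table.

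The change at 72 h of 1 µM was then set against that at 24 h in the same fit. This difference passed in 10 of 26 members (1 higher, 9 lower), with 34.3% in all genes (15.5% higher and 18.8% lower), and its fitted value exceeded 2-fold in 4, all lower (6.34% in all genes, 2.25% higher and 4.08% lower). ITGAE was the higher member (0.31, adjusted p = 0.0105). It was -1.81 in ITGB4 (SE 0.12, adjusted p = 7.31e-09), -1.41 in ITGA11, -1.20 in ITGA9, -0.97 in LAMB2, -0.77 in ITGA7, -0.55 in LAMA5, -0.45 in ITGAV and -0.36 in LAMC1. In LAMA1 it was -2.38, a value that rests on a group without an array above background. With only probes above background on all 24 arrays, the difference passed in 9 of 22 members (1 higher, 8 lower). ITGA7 had a 24 h change of 0.21, opposite in sign to its 72 h change, which did not pass (adjusted p = 0.0551). The calls of LAMA5 and LAMC1 were lost without DMSO 72 h replicate 1 (adjusted p = 0.0578 and 0.0514) or G-1 1 µM 24 h replicate 4 (0.0574 and 0.0536), and that of LAMA5 also without DMSO 24 h replicate 2 (0.0654) or G-1 1 µM 72 h replicate 1 (0.0637). With dim probes kept in, 7 of these 10 calls remained, and ITGAE (adjusted p = 0.0765), LAMA5 and LAMC1 did not pass. For G-1 IC50 the same difference passed in 0 members in limma, with 0.014% in all genes. At an unadjusted p under 0.05 it did in 2, without a count over all genes at that threshold.

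Set against each other at 72 h, the 2 doses differed in 18 of 26 members (6 higher at 1 µM, 12 lower), with 65% in all genes (33.5% higher and 31.5% lower), and by more than 2-fold in 5 (11.5% in all genes), ITGA11 (-2.03), ITGB4 (-1.78), ITGA9 (-1.14), ITGB3 (1.05) and LAMA1 (at least 2.19-fold). With only probes above background on all arrays, 16 of 22 members differed (6 higher, 10 lower). LAMA4 was higher by 0.54 (adjusted p = 7.82e-05), with its 3 probes between 0.48 and 0.54. The calls of ITGA6 (-0.33, lost without 1 µM replicate 2 or 3 or IC50 replicate 2 or 4), LAMA2 (0.36, lost without 1 µM replicate 1 or 2 or IC50 replicate 1 or 2) and LAMA5 (-0.37, lost without 1 µM replicate 1 or IC50 replicate 2) depended on single arrays, with adjusted p up to 0.0656, 0.140 and 0.0829. The other tested probe of ITGA6 differed by 0.06 between the doses and did not pass (adjusted p = 0.708). At 24 h 4 members differed (25.4% in all genes, 16.1% higher and 9.31% lower) and 0 by more than 2-fold (1.47% in all genes), with ITGA3, ITGAE and ITGA7 higher at 1 µM (0.41, 0.27 and 0.26) and ITGB8 lower (-0.45). The split of 3 higher and 1 lower became 3 and 2 with quantile normalization and 2 and 3 with normexp background correction. The call of ITGA7 was lost without 1 µM replicate 1 or IC50 replicate 4 (adjusted p = 0.0829 and 0.0909).

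In DMSO alone, 72 h against 24 h of culture, 2 members passed, both higher (3.28% in all genes, 1.26% higher and 2.02% lower), and 0 with more than 2-fold (0.176% in all genes). ITGB5 was higher by 0.54 (adjusted p = 0.000584), with 4.18, 4.22, 3.97 and 4.11 at 72 h against 3.71, 3.47, 3.48 and 3.65, and passed with each array left out in turn. ITGA11 was higher by 0.74 (adjusted p = 0.0242), with overlapping arrays, and was lost without any 1 of 6 of the 8 arrays (DMSO 24 h replicates 1, 2 and 3 and DMSO 72 h replicates 1, 2 and 4, adjusted p up to 0.0700).

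Partner genes were described through 3 lists, which were chosen with earlier results of these data known. Their shares beside those of all genes are therefore a description and not a test. In a list of basement membrane proteins and non-integrin laminin receptors, 20 of 25 genes were tested, and after 72 h of 1 µM 3 were higher and 12 lower (15 of 20 against 65.9% of all genes, and 12 of 20 lower against 33.2%), with a median change of -0.59. Its largest changes were HSPG2, the heparan sulfate proteoglycan perlecan (-2.07, adjusted p = 4.41e-07), SPARC, a collagen-binding matrix protein (-1.46), the type IV collagen chain COL4A5 (-1.09) and the syndecan SDC3 (-1.07). HSPG2 had a mean level of 2.99 (SD 0.36, n = 4) in DMSO at 72 h and of 0.92 (SD 0.23) in G-1 1 µM. The 3 higher genes were the type IV collagen chain COL4A1 (0.96, adjusted p = 7.63e-05) and the syndecans SDC1 (0.71) and SDC4 (0.53). Of the other type IV chains tested, COL4A6 was lower (-0.69) and COL4A2 did not pass (0.18).

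In a list of other integrin ligands, 21 of 32 genes were tested, 5 higher and 9 lower, which at 66.7% was near the 65.9% of all genes (32.7% higher and 33.2% lower). CCN2, a matrix protein that binds several integrins, was higher by 1.58 (adjusted p = 3.37e-08). Of the matrix ligands of ITGA9 and ITGA4 integrins, TNC, a tenascin, was higher by 1.38 (adjusted p = 6.52e-07). SPP1, osteopontin, did not pass (0.14). VCAM1, which ITGA9 and ITGA4 integrins bind, VWF, a ligand of the ITGB3 integrins, and THBS2, an anti-angiogenic matrix protein, changed by -2.28, -1.74 and -1.55 (adjusted p = 1.06e-05, 5.57e-09 and 3.37e-07), and VCAM1 and VWF were above background on 3 of 4 arrays of 1 µM at 72 h. VWF is also a marker of endothelium, of whose other 4 markers PECAM1, TEK and CLDN5 were above background on 0 arrays and CDH5 on 16 of 24, 4 of 4 in DMSO and 0 of 4 in 1 µM at 72 h. The part of this in the VWF value was not tested. In a list of adaptors and signaling proteins at the integrin tail, 36 of 41 were tested, 16 higher and 12 lower (77.8%, against the same 65.9% of all genes). CAV1, the caveolar coat protein, was higher by 1.17, and TNS2, PTK2B and KANK2, which act at focal adhesions, changed by -1.16, -1.07 and -1.04, all 4 with adjusted p of 3.00e-06 or less.

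Of these 3 lists 1 gene each passed after 72 h of G-1 IC50, all lower (1 of 20, 1 of 21 and 1 of 36, against 0.906% of all genes, 0.471% lower). LTBP3, which holds latent TGF-beta in the matrix, fell by 0.98 (adjusted p = 0.000646), from 3.44 (SD 0.13, n = 4) to 2.46 (SD 0.13), and within slide 1 by 0.91 and within slide 2 by 1.00. It passed with each array left out. COL18A1, a basement membrane collagen, had a change of -0.35 (adjusted p = 0.0131) that was lost without DMSO replicate 2 or 4 or IC50 replicate 3 or 4 (adjusted p up to 0.0662). The change of TNS3, a tensin, of -0.36 (adjusted p = 0.0491) was kept without 1 of the 8 arrays only, DMSO replicate 4 (adjusted p up to 0.179 without the others).

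**Figure D4:**
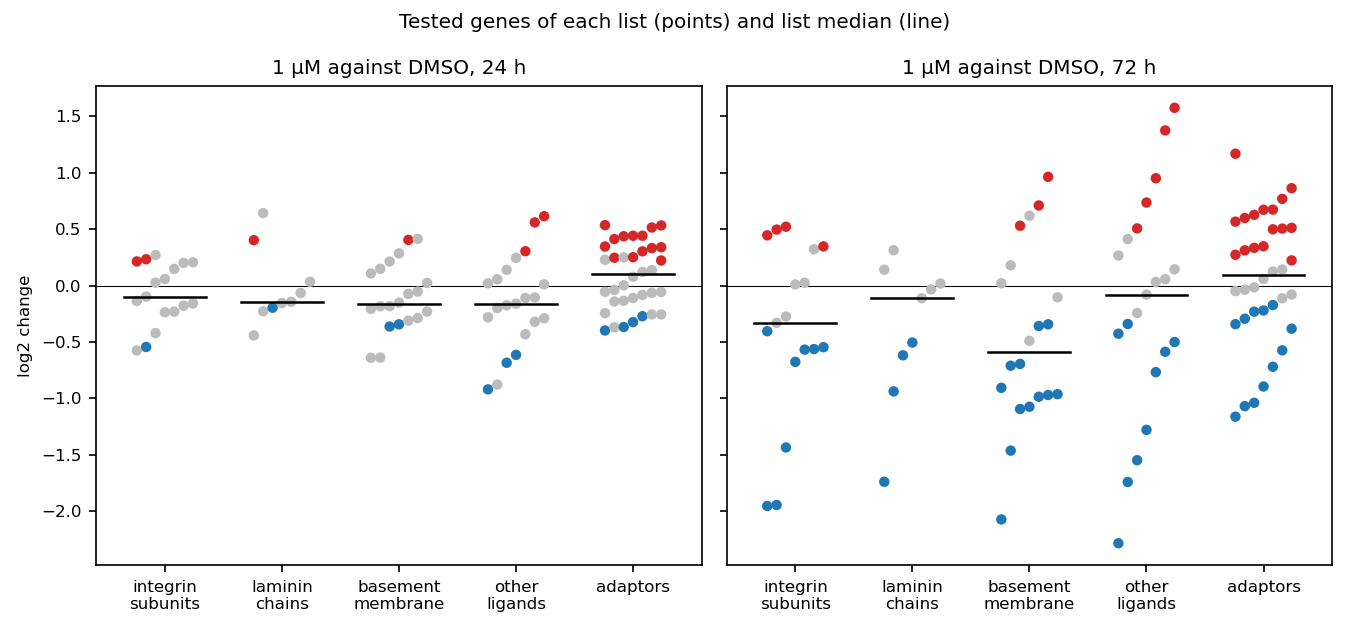
Log2 change after 24 h and 72 h of G-1 1 µM against DMSO for the tested genes of 5 lists (points, 17 integrin subunits, 9 laminin chains, 20 basement membrane genes, 21 other ligands and 36 adaptors), with the list median (line). Red and blue points passed the test, higher and lower, and grey points did not. At 72 h the median of the basement membrane list is -0.59, and 12 of its 20 genes are lower. The lists were chosen with earlier results of these data known.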

How the data were processed

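RNA of 24 U251 cultures was hybridized to Agilent 1-colour arrays. The deposited scanner files hold the intensity of each spot, with the background already subtracted by the authors in Feature Extraction (12.1.1.1 per the file headers, 10.7.3.1 per the submitters' processing notes). The deposited table of log2 values differed from the values used here by a median of 0.0141 after centring, and holds the authors' 75th percentile shift centred on each probe's median.

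From the processed intensity, the log2 value minus the array's 75th percentile over non-control spots was taken. Spots marked as outliers were left out, spots of a probe were averaged, and 83 of 58201 probes had no value left on at least 1 array. Of the probes, 35956 carried a RefSeq accession and 35032 of these were matched to a symbol in RefSeq (GRCh38.p14). The share of spots well above background (38.0% to 40.7% on the 1 µM arrays, 41.1% to 44.5% on the others) and the number of arrays limit the precision.

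All 6 groups were fitted together in limma 3.58.1 (R 4.3.3), with 1 mean per group and Benjamini-Hochberg adjustment over 22973 probes. The fit was tested on simulated data with known changes. The labels call the replicates independent, and p-values measure the spread between these arrays. 1 laminin gene is not reported here and was left out of the members, counts and figures. The other members with a tested probe were all named, and from each list the 4 genes with the largest change that passed at 72 h of 1 µM and any that passed at IC50. Further genes of the basement membrane list, and TNC and SPP1 of the ligand list, are given beside them. The members, lists and tests were chosen with earlier results of these data known. Alternatives were quantile normalization, normexp background correction with an offset of 50 (on the median signal), the deposited table, other filters on dim probes, any probe of a gene, the slide or the replicate number as a block, the methods' t-test, a fold above 2, and each array left out.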

Additional observations from a re-analysis of the deposited data

Results flagged for a closer look

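In 156 groups of 4 arrays (26 members in 6 groups), 4 had an array set apart from the other 3 by Dixon's test, 2.56% where chance gives about 5%. ITGA11 was high in replicate 4 of G-1 1 µM at 24 h, at -1.03 with the others between -1.82 and -1.78. ITGB3 was low in replicate 2 of DMSO at 24 h, at 0.86 with the others between 1.29 and 1.33. LAMA2 was low in replicate 1 of G-1 IC50 at 24 h, at -1.90 with the others between -1.50 and -1.42. LAMB2 was low in replicate 1 of G-1 1 µM at 72 h, at 5.42 with the others between 5.63 and 5.65.

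The change under G-1 1 µM differed between 72 h and 24 h in 10 members by the interaction term of the limma fit. The difference was negative in ITGA11 (-1.41, adjusted p = 0.000204), ITGA7 (-0.77, 3.10e-05), ITGA9 (-1.20, 7.65e-06), ITGAV (-0.45, 0.00289), ITGB4 (-1.81, 7.31e-09), LAMA1 (-2.38, 5.71e-05, with no 1 µM array at 72 h above background), LAMA5 (-0.55, 0.0262), LAMB2 (-0.97, 7.13e-06) and LAMC1 (-0.36, 0.0226). It was positive in ITGAE (0.31, 0.0105).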

How the results depend on the processing

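No value changed direction among called members. With an array left out, the count of members that passed lay between 14 and 16 at 72 h of 1 µM, 2 and 6 at 24 h, 16 and 18 and 3 and 6 against IC50 at 72 h and 24 h, 8 and 12 for the change between durations at 1 µM, and 1 and 2 for DMSO over time, and was 1 at 72 h of IC50, 0 at 24 h of IC50 and 0 for the IC50 change between durations in each fit. Without a filter on dim probes 8 of 37 members passed at 24 h of 1 µM (7 higher, 1 lower), 9 against IC50 at 24 h (8 and 1), 24 against IC50 at 72 h (11 and 13), 7 for the change between durations at 1 µM (0 and 7) and 1 for DMSO over time. These 37 include the members above background on 0 arrays. The part of the background of slide 3 in their calls was not tested, and the share of all genes without the filter was not counted. With the slide as a block 2 passed at 24 h of 1 µM. Also asking for more than 2-fold left 4 at 72 h of 1 µM (with LAMA1 by its fitted value, its bound being 1.94-fold), 5 against IC50 at 72 h and 4 for the change between durations at 1 µM, and 0 at 24 h of 1 µM, against IC50 at 24 h and for DMSO over time. The methods' t-test with that fold gave 4, 5, 0, 0 and 0 at 72 h of 1 µM, against IC50 at 72 h, at 24 h of 1 µM, against IC50 at 24 h and for DMSO over time, both unadjusted and adjusted, and 0 at 72 h of IC50 when adjusted. ITGB7 (72 h of 1 µM) did not pass with quantile normalization, normexp or no filter, ITGA10 not with normexp or no filter. Other causes were not tested. Dim probes (ITGA10, ITGB2, ITGB7, LAMA1) were near background, which limits their values.

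The labels give no shared source for a number. Same-numbered arrays of 1 duration correlated at -0.11 to 0.49 (median 0.19) in their deviations from the group means, against a median of -0.05 for other numbers, and since not every pair was above 0.1 the numbers were not taken to pair the arrays. The higher median, and the 12 of 24 arrays that correlated best with their own number, are a hint of pairing from the data, not the design. With the replicate block 7 members passed at 24 h of 1 µM, 4 for DMSO over time, 2 at 72 h of IC50 (LAMA4 beside ITGB3, adjusted p = 0.0462), and 1 for the IC50 change between durations (ITGB3, 0.0167).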
